A study of Mus musculus with 6 samples.

Results

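Collagens, laminins and the genes that remodel them were compared between the adrenal glands of chromogranin A (Chga) knockout mice and wild-type mice. The members were all probe sets whose platform annotation gave a single symbol of a collagen chain, laminin chain, fibrillin, fibulin, matrix metalloproteinase (Mmp), tissue inhibitor of metalloproteinases (Timp) or nidogen, together with Dcn, Lum, Bgn, Fn1, Sparc and Eln. This gave 67 of the 8251 named genes on the array, read by 96 probe sets. RNA of whole adrenal glands was hybridised to single-colour arrays, 3 from male Chga knockout mice and 3 from male wild-type mice, all 12 weeks old. The labels refer both lines to an earlier publication and say no more of the deleted allele or the genetic background. No treatment is given for either genotype. Nothing in the labels says more than that there were 3 mice per genotype, so the spread between arrays was taken as the spread between animals.

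The extracellular matrix holds tissues together. Fibrillar collagens form the fibres of the adrenal capsule and septa, while collagen IV, laminins and nidogens form the basement membranes under the sinusoidal endothelium and around cortical and chromaffin cells. Small leucine-rich proteoglycans such as decorin bind collagen fibrils, Mmps cut matrix proteins and Timps inhibit the Mmps. Most of these genes are expressed by fibroblasts, endothelium and mural cells, which are minor cell types of the gland. Because whole glands were measured, a change in the number of such cells and a change in RNA per cell cannot be told apart.

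Signals are linear intensities made by the authors with MAS5, and the median signal of an array lay between 953 and 1092. On the Chga probe set of higher mean the knockout arrays read 1188, 858 and 951 and the wild-type arrays 46719, 30213 and 35306, a log2 change of -5.19 ± 0.20 (SE). Genes of the adrenal cortex (summed signal of 8 genes between 547200 and 662900 on every array) and of chromaffin cells (6 genes, between 162000 and 205600) were bright throughout, as the tissue label states. The 3'/5' ratio of the Gapdh control probe sets, a sign of RNA integrity, was 0.831, 1.3 and 1.29 on knockout arrays 1 to 3 and between 0.762 and 0.806 on the wild-type arrays. The actin control gave 1.32, 1.69 and 1.72 against 1.14 to 1.22, so knockout array 1 also lay above every wild-type array in both ratios. Knockout arrays 2 and 3 also stood apart in skeletal muscle transcripts, with a summed signal over 14 genes of 88350 and 45220, against 12330 on knockout array 1 and 12840 to 13530 in wild type. Differences are therefore also given for knockout array 1 alone, the array with low muscle signal. That group holds 1 array, so only the wild-type arrays supply the spread, and no p is read from it.

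2 sets of promoter sequence are shown before the values, because the array values of their genes are set side by side later. They come from RefSeq (GRCm38.p6), which held windows from 250 bases before to 50 after the start for 44 of the 67 members. The first set is that of Col4a1 and Col4a2, the chains of the most widespread collagen IV network, which lie head to head on opposite strands. Their annotated starts are 21 bases apart, and the annotated transcripts overlap between them. Each stretch therefore runs into the transcribed sequence of the other gene. The Col4a1 stretch lies at chr8:11312797-11313076 on the minus strand and the Col4a2 stretch at chr8:11312555-11312834 on the plus strand, each ending 30 bases past its start. Capitals mark the 38 bases that the 2 stretches share on opposite strands. G and C made up 74.0% and 73.7% of their full windows, against a median of 52.7% over all windows.
Col4a1: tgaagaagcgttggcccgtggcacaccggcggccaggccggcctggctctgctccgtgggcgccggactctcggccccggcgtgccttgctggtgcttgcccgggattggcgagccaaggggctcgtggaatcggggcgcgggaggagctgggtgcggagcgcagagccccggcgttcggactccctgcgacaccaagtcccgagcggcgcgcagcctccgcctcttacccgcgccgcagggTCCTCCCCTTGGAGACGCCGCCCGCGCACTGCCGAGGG
Col4a2: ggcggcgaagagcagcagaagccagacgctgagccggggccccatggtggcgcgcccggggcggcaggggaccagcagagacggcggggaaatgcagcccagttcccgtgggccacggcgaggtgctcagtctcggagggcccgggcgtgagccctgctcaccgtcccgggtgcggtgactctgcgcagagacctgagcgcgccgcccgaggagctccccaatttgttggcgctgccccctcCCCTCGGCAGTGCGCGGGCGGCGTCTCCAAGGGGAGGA

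The second set is that of 5 Mmp genes whose windows hold the AP-1 motif TGANTCA, the site of Fos and Jun proteins. It was searched on both strands, and its reverse complement is the same pattern. The motif was present for 5 of the 9 Mmp genes with a window and for 1 of the other 35 members, Col6a1, and for 8.97% of all genes. All 5 also hold TATAAA in the stretch shown, a motif present for 15.67% of all genes. These 5 genes are neighbours on chromosome 9, so they were not taken as independent cases and the shares are a description only. Capitals mark the AP-1 motif and then TATAAA, and all stretches are on the plus strand, at chr9:7445764-7445845 for Mmp3, chr9:7692015-7692096 for Mmp7, chr9:7502267-7502348 for Mmp10, chr9:7347318-7347399 for Mmp12 and chr9:7272467-7272543 for Mmp13.
Mmp3: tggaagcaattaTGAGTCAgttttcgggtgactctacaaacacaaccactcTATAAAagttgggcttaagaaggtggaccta
Mmp7: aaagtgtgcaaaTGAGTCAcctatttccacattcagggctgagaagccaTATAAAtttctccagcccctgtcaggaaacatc
Mmp10: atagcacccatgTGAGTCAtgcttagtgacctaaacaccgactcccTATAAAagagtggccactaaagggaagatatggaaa
Mmp12: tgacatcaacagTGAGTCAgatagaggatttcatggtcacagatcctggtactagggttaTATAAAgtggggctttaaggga
Mmp13: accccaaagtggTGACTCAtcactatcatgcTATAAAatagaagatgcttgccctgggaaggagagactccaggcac
The AP-1 motif began 46, 63, 63, 44 and 35 bases before the annotated start, in that order, and TATAAA began 39, 37, 34, 48 and 19 bases further on. In Mmp12 TATAAA lay past the annotated start, at position 5. A match is a description of the letters only.

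No matrix gene passed the test. Probe sets with a mean log2 signal under the 40th percentile (signal near 582) were not tested, and 42 of the 67 genes remained. Of these 42, 0 were higher and 0 lower in the knockout at an adjusted p of 0.05 (limma with Benjamini-Hochberg adjustment), against 0.388% of all 5663 genes tested. At an unadjusted p of 0.05 there were 6, of which 5 had higher and 1 had lower values (14.3%, against 10.7% of all genes). The 3 knockout arrays lay above all wild-type arrays for 5 members and below them for 3, where all genes gave 7.88% and 8.41%. Col4a5 and Mmp12 passed the filter only through the genotype in which they were bright, so the shares are given as a description only.

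The median log2 change over the 42 genes was 0.05, with the middle of the distribution between -0.16 and 0.22, and all 5663 genes had a median of 0.00. 39 of the 42 values were smaller than 0.5 in size, and the exceptions were Mmp12 (1.74), Dcn (0.73) and Col4a5 (-1.26). For 33 of the 42 the 95% interval of the change lay within 1 log2 unit, a 2-fold difference, on both sides of 0. For the other 9 a larger difference was not excluded at this number of arrays. With knockout array 1 alone the median was 0.01.

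**Figure D1:**
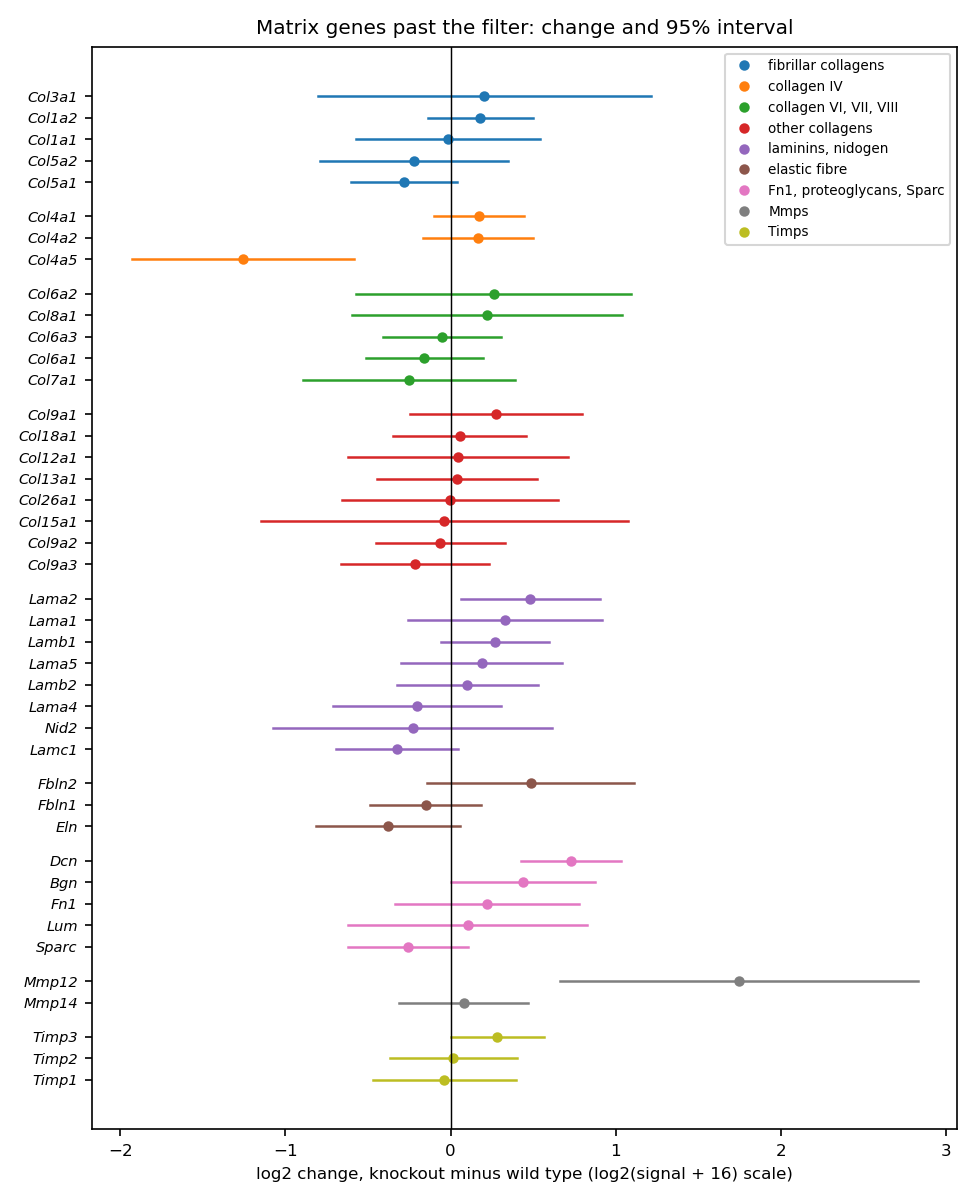
Log2 change (knockout minus wild type, log2(signal + 16) scale, horizontal axis) of the 42 matrix genes past the filter, grouped by role in colour, with 95% intervals from limma as lines. Most intervals include 0, and Mmp12 (1.74), Dcn (0.73) and Col4a5 (-1.26) lie farthest from it.

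Among the small proteoglycans, Dcn, which encodes the collagen-binding proteoglycan decorin, had the smallest p of all members. It read 31400.3, 31014 and 25764 on the knockout arrays and 17569, 16161 and 19427 on the wild-type arrays. The groups did not overlap, and the lowest knockout array exceeded the highest wild-type array. The difference was 1.66-fold (log2 change 0.73 ± 0.13 SE, 95% interval 0.43 to 1.03), just short of the threshold (adjusted p = 0.066). With knockout array 1 alone the log2 difference was 0.83. The part of RNA quality in the Dcn value was not tested. Over the alternatives with at least 2 arrays per genotype it lay between 0.66 and 0.82 with adjusted p between 0.0513 and 0.247, and it passed in 0 of them at the 0.05 threshold.

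Bgn, which encodes the related proteoglycan biglycan, had higher values only on 2 knockout arrays. The knockout arrays read 13833, 23958 and 19620.0, and wild type read 12972, 13799.5 and 14651 (log2 change 0.44 ± 0.19 SE, adjusted p = 0.439). Knockout array 1 lay among the wild-type arrays, and with that array alone the change was 0.00. A second probe set gave 4678, 5659.5 and 5866 against 4203, 4941 and 5024, with a log2 change of 0.19. Bgn thus differed from Dcn in how the knockout arrays were ordered.

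Lum, the gene of lumican, another proteoglycan of this class, read 2751, 4396 and 4156 in knockout and 2426, 2899 and 5757 in wild-type arrays. The highest value of the 6 was a wild-type array, and the groups overlapped throughout (log2 change 0.10 ± 0.32 SE, adjusted p = 0.937). Fn1, the gene of fibronectin, an adhesive glycoprotein, read 2129, 2585 and 2316 against 2019.7, 1422 and 2802 (log2 change 0.22 ± 0.25 SE, adjusted p = 0.779). Its knockout arrays all lay inside the wild-type range. Sparc, a collagen-binding matricellular protein, read 50490.2, 43028 and 34859.8 against 55965, 52456 and 44025, with a log2 change of -0.26 ± 0.16 SE (adjusted p = 0.576). The brightest knockout array for Sparc was array 1.

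**Figure D2:**
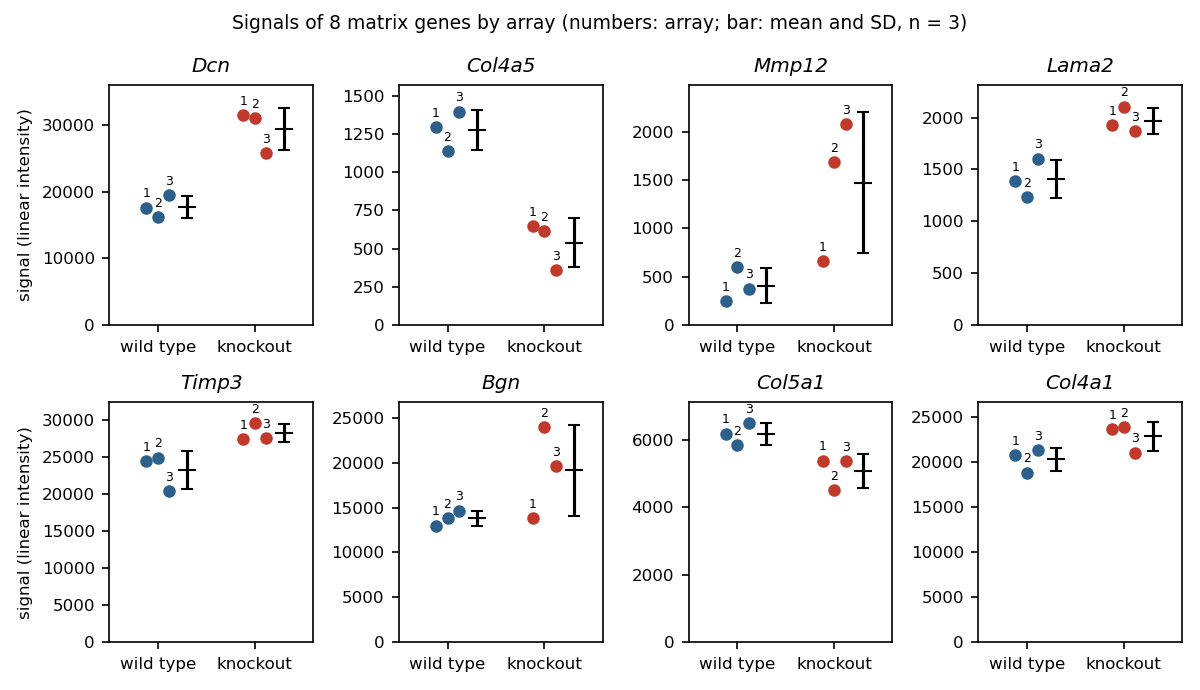
Signal (linear intensity, vertical axis from 0) of 8 matrix genes on each wild-type (blue) and knockout (red) array, numbered by array, with black bars for mean and SD (n = 3). Dcn, Lama2 and Timp3 are higher and Col4a5 and Col5a1 lower on all 3 knockout arrays, while Bgn and Col4a1 overlap and Mmp12 on knockout array 1 (661) lies close to the highest wild-type value (601).

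Of the basement membrane collagens, Col4a5, an X-linked chain of collagen IV, had the largest difference among the collagens. It read 648, 612 and 359 on the knockout arrays and 1293, 1139 and 1394 on the wild-type arrays, without overlap. The difference was 2.39-fold (log2 change -1.26 ± 0.30 SE, 95% interval -1.93 to -0.58) and did not pass (adjusted p = 0.175). With knockout array 1 alone it was -0.96. Over the alternatives with at least 2 arrays per genotype it ranged from -1.41 to -0.995, with adjusted p between 0.0732 and 0.393. Its signal lay near the filter, and it could not be tested with the filter at the 60th percentile.

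Col4a1 and Col4a2, whose promoters are printed above, had nearly equal changes of 0.17 ± 0.12 and 0.17 ± 0.15 (SE, log2). Col4a1 read 23636, 23911 and 21043 against 20763, 18850.1 and 21303 (adjusted p = 0.631). Col4a2 read 15669.9, 17692 and 18030.3 against 14792, 13189 and 18126 (adjusted p = 0.706). In both, wild-type array 2 was the lowest array. Wild-type array 3 lay inside the knockout range for Col4a1 and above every knockout array for Col4a2. The 95% intervals, -0.10 to 0.44 and -0.17 to 0.50, lay inside 1 log2 unit. Col4a3 and Col4a4, the chains that pair with Col4a5 in kidney basement membranes, stayed under the filter, with no array above 87.0 and 152 respectively.

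Laminins, the cross-shaped heterotrimers of basement membranes, had values in both directions. Lama2, the alpha chain of muscle and peripheral nerve basement membranes, read 1927, 2102 and 1869.8 in knockout and 1388, 1233 and 1604 in wild-type arrays. The groups did not overlap (log2 change 0.48 ± 0.19 SE, 95% interval 0.07 to 0.90, adjusted p = 0.402). The value was 0.46 with knockout array 1 alone. Lamb1, a widespread beta chain, read 3734, 3893 and 3556 against 3025, 2931 and 3329.8, again without overlap (log2 change 0.27, adjusted p = 0.514). Its second probe set, however, had overlapping groups and a log2 change of 0.08.

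Lamc1, the gamma chain shared by most laminins, ran the other way. It read 3216, 3154 and 2475 in knockout and 3524, 3934 and 3564 in wild-type arrays, all knockout arrays below all wild-type arrays (log2 change -0.32 ± 0.16 SE, adjusted p = 0.491). Its other probe set was under the filter and had overlapping groups. Lama1, Lama5 and Lamb2 had log2 changes of 0.33, 0.19 and 0.10, and the endothelial chain Lama4 and the linker nidogen 2 (Nid2) had -0.20 and -0.23, all with overlapping groups. Of 8 laminin and nidogen genes tested 0 passed, and Lama3, Lamb3 and Nid1 were under the filter.

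Among the fibrillar collagens, Col3a1 and Col1a1 varied widely between arrays of the same genotype, and none of the 5 tested passed. Col3a1, the chain of reticular fibres, read 2665, 8036 and 5236 in knockout and 2593, 3788 and 7456 in wild-type arrays. Knockout array 2 and wild-type array 3 were high, while the first array of each genotype was low, and the log2 change was 0.20 ± 0.45 SE (95% interval -0.80 to 1.21, adjusted p = 0.895). A second probe set kept this order within the genotypes, at 684, 1743 and 1435 against 1003, 1081 and 1712, and gave -0.04. The third probe set of Col3a1 was under the filter and also had its lowest value on knockout array 1 (56.5) and its highest on wild-type array 3 (1277).

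Col1a1, the main chain of type I collagen, read 4656, 7804 and 6411 against 4798, 5924 and 8452 on its probe set of higher mean log2 signal, with a log2 change of -0.01 ± 0.25 SE (adjusted p = 0.987). Its other probe set read 3882, 11598 and 5524 against 3633, 4607 and 11994 (log2 change 0.10). That other probe set has the higher mean on the linear scale, so the sign for Col1a1 depends on the scale used to choose. Col1a2, which encodes the partner chain, read 8709, 9534 and 10259 against 7951, 9487 and 7768 on the brighter probe set (log2 change 0.18, adjusted p = 0.666). The dimmer Col1a2 probe set read 5712, 10586 and 7633 against 4908, 5019.6 and 13166, the same order as in Col1a1 and Col3a1. In this group the signs of Col1a1 and Col3a1 therefore depended on the probe set.

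Col5a1, a chain of the minor collagen V that helps to start fibrils, was the fibrillar member with the smallest p. It read 5384, 4502 and 5375 in knockout and 6177, 5839.9 and 6499 in wild-type arrays (log2 change -0.28 ± 0.14 SE, adjusted p = 0.490). A second probe set read 1908, 2040.3 and 1290.2 against 2467, 2387 and 3227, with a log2 change of -0.63 ± 0.22 SE (adjusted p = 0.385). Both probe sets placed all knockout arrays below all wild-type arrays, and neither passed. Its partner Col5a2 overlapped between genotypes (log2 change -0.22). Col2a1, Col11a1 and Col11a2, the collagens of cartilage, were under the filter.

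The microfibril collagen VI, present around most connective tissue cells, gave mixed values. Col6a1 read 28274, 38427 and 29826 against 31495, 34675 and 41253 on its brighter probe set, with overlapping groups (log2 change -0.16 ± 0.16 SE, adjusted p = 0.745). Its other probe set read 6063, 7356 and 6105 against 9017, 8038 and 8400.3, without overlap (log2 change -0.39 ± 0.14 SE, adjusted p = 0.389). Col6a2 read 2264, 5729.9 and 4181 against 2459.8, 2547 and 5029, which is the array order of Col3a1. Col6a3, Col7a1 and Col8a1 had log2 changes of -0.05, -0.25 and 0.22, and Col10a1 was under the filter.

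The remaining collagens, which attach to fibrils or basement membranes or span the cell membrane, showed small changes. Col9a1 had the smallest p of the 8 tested, with 1549.9, 1729.6 and 2011 against 1087, 1746 and 1592 (log2 change 0.28 ± 0.23 SE, adjusted p = 0.688). Col15a1, of vessel and muscle basement membranes, read 673 on knockout array 1 but 2749.5 and 2321 on the others, against 1120.2, 1918 and 2179 in wild type. Its log2 change was -0.04, with an interval of -1.15 to 1.07. Col18a1, the precursor of endostatin, read 5162, 6283 and 4256 against 5388, 4372 and 5229.6 (log2 change 0.05), and its 2 dimmer tested probe sets gave -0.21 and -0.35. Col12a1, Col13a1, Col26a1, Col9a2 and Col9a3 lay between -0.22 and 0.05. Col14a1, Col17a1, Col19a1 and Col22a1 were under the filter.

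Elastic fibre genes did not pass either. Eln, the gene of elastin, read 3911, 4307 and 3928 in knockout and 4285, 4876 and 6958 in wild-type arrays (log2 change -0.38 ± 0.19 SE, adjusted p = 0.496). Only knockout array 2 reached the lowest wild-type array. Fbln2, a fibulin that binds elastic fibres and basement membranes, read 1199.8, 2113 and 1608 against 852, 1239 and 1391 (log2 change 0.49 ± 0.28 SE, adjusted p = 0.538). Fbln1 had -0.15 on its brightest probe set and -0.23 and -0.04 on 2 others. Fbn2 was under the filter.

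Of 13 Mmp genes, 11 were under the filter in these glands. Mmp12, the macrophage elastase, had signals of 661, 1681 and 2077 in the 3 knockout mice and of 248, 601 and 377 in wild type. The groups did not overlap, but knockout array 1 exceeded wild-type array 2 by little. The difference was 3.35-fold (log2 change 1.74 ± 0.48 SE, 95% interval 0.66 to 2.83, adjusted p = 0.244). The log2 change was 0.76 with knockout array 1 alone. Mmp12 passed only when that array, its lowest in knockout, was left out (2.24, adjusted p = 0.0345). Over the alternatives with at least 2 arrays per genotype the adjusted p ranged up to 0.629. Mmp12 was past the filter only through its knockout arrays, so no support is read from that pass. The second Mmp12 probe set, under the filter, had overlapping groups, with 267, 445 and 634 against 354, 602 and 313.

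Markers of macrophages, the cells that give Mmp12 its name, were read on the same arrays. Over 16 such genes the knockout arrays summed to 30900, 51820 and 44510, and those of wild type to 28090, 26710 and 30870. Knockout arrays 2 and 3 were high in both readouts, but array 3 was the highest for Mmp12 and array 2 for the markers. In wild type, array 2 was the highest for Mmp12 and the lowest for the markers. All 13 of these genes past the filter had higher values in knockout, with a median log2 change of 0.63, and 0 passed. Among them Csf1r, the receptor of macrophage growth factor, had 0.91 (adjusted p = 0.186), while the classical marker Adgre1 and Fcer1g and Fcgr3 were under the filter. The part of macrophage content in the Mmp12 value was not tested. Knockout arrays 2 and 3 were also those with the highest Gapdh and actin ratios and with the muscle transcripts.

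Mmp14, the membrane-bound collagenase and the other Mmp above the filter, read 6982, 5763 and 6131 against 4894, 7172 and 5971 (log2 change 0.08 ± 0.17 SE, adjusted p = 0.897). The other 4 genes whose promoter stretches with an AP-1 motif are printed above were dim in both genotypes. The stromelysin genes Mmp3 and Mmp10 read 71.9, 63.6 and 22.5 against 135, 257 and 135, and 39.5, 164 and 43.6 against 57.2, 48.7 and 8.14. The matrilysin gene Mmp7 stayed between 28.3 and 89.9 and the collagenase gene Mmp13 between 134 and 459.7. Of all 25 members under the filter, Mmp3 was the only gene whose groups did not overlap, and values this dim were not tested. Col6a1, the other member with the motif, is given above.

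The gelatinase genes Mmp2 and Mmp9 were also under the filter. Mmp2 read 806, 462 and 529.9 against 537, 599 and 414, and Mmp9 read 142, 331 and 186 against 177, 218 and 257. The rest of the family under the filter, Mmp8, Mmp11, Mmp16, Mmp17 and Mmp24, had overlapping groups. Over the 25 members under the filter the untested log2 difference had a median of 0.03 and 15 of the values were higher in knockout.

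The Timps were all above the filter. Timp3, the Timp that is bound to the matrix, read 27447, 29617 and 27598 in knockout and 24468, 24943 and 20380.2 in wild-type arrays. The groups did not overlap, with a 1.22-fold difference (log2 change 0.28 ± 0.13 SE, 95% interval 0.00 to 0.57, adjusted p = 0.439). It was 0.24 with knockout array 1 alone. Timp1, the inducible Timp, read 4343, 6769 and 6095 against 5050.1, 6070.0 and 6333 (log2 change -0.04), and Timp2 read 2262, 2032 and 2284 against 1912, 2409 and 2199 (0.02). For Timp1 and Timp2 the intervals, -0.47 to 0.39 and -0.37 to 0.40, lay well inside a 2-fold difference.

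Several collagens varied between arrays of the same genotype. The genes with the largest spread between arrays of 1 genotype were Col15a1, Col3a1, Mmp12 and Col6a2, with pooled SDs of 0.85, 0.78, 0.75 and 0.63 on the log2 scale. All 42 matrix genes had a median SD of 0.23, close to the 0.24 of all genes tested, and the 5 fibrillar collagens had 0.36. Col15a1, Col3a1, Col6a2, Lum and Col1a1 all had their lowest knockout value on array 1 and their lowest wild-type value on array 1, and wild-type array 3 was the highest wild-type array for each. Bgn, Col6a1, Col8a1, Eln, Fbln2 and Timp1 met the same description. All of these genes were grouped after their values were seen. Over all 42 members, wild-type array 3 was the highest of its genotype for 24, and for 1684 of 5663 genes overall.

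Fat cell and fibroblast markers followed a similar order. Summed over 9 adipocyte genes, the knockout arrays gave 63690, 152800 and 107500, and wild type gave 52240, 88180 and 127000. The sum of 13 fibroblast and capsule genes was 24070, 36760 and 34210 against 19140, 17740 and 31080. In both lists knockout array 2 was the highest knockout array and wild-type array 3 the highest wild-type array. This also held for the summed signals of the macrophage, endothelium and liver lists and of the matricellular and other structural genes read below. It was therefore not particular to fat or fibroblast markers. All 9 adipocyte genes and 7 of the 13 fibroblast genes were above the filter, and the fibroblast markers Dpt, Thy1, Vim and Fap were among those under it. Of these only Thy1 had groups that did not overlap, with 1144.6, 1173 and 1102 on the knockout arrays and 245, 144 and 653 in wild type. The part of attached fat or capsule in the collagen values was not tested.

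**Figure D3:**
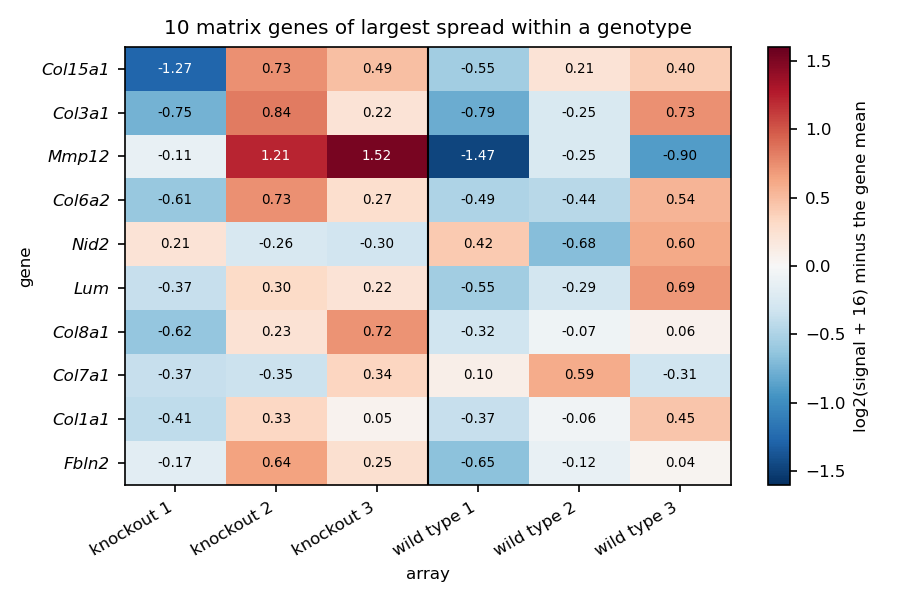
Log2(signal + 16) minus the gene's mean over the 6 arrays (colour and printed value) for the 10 matrix genes of largest spread within a genotype (rows) on each array (columns). Col15a1, Col3a1, Col6a2, Lum and Col1a1 are low on knockout array 1 and wild-type array 1 and high on knockout array 2 and wild-type array 3.

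Dcn did not share this order, since knockout array 1 was its highest array. Beside the values of Dcn, the fibroblast receptor genes Pdgfra and Pdgfrb also had all 3 knockout arrays above all wild-type arrays, with log2 changes of 0.70 (adjusted p = 0.320) and 0.46 (adjusted p = 0.544). Of the 7 fibroblast and capsule genes tested 3 were separated in this way, against 7.88% of all genes. The summed signal of that list overlapped, with 24070 on knockout array 1 and 31080 on wild-type array 3. Endothelial genes had a summed signal over 12 genes of 39940 to 47770 in knockout and 34740 to 36790 in wild type, and a median log2 change of 0.31. Smooth muscle and pericyte genes had 17420 to 21710 and 14900 to 18920 over 10 genes, with a median of 0.28. In limma 0 markers of these lists passed, and 2 of 7 fibroblast, 1 of 8 smooth muscle and 1 of 12 endothelial genes tested had an unadjusted p under 0.05, against 10.7% of all genes. Of the 12 endothelial genes 2 (16.7%) had groups that did not overlap, against 16.3% of all genes. Every knockout sum also exceeded every wild-type sum for chromaffin genes (192700 to 205600 against 162000 to 179800) and matrix receptors (91960 to 99360 against 89000 to 89810). The macrophage sums did so by little (30900 against 30870). The part of these cell types in the matrix values was not tested.

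**Figure D4:**
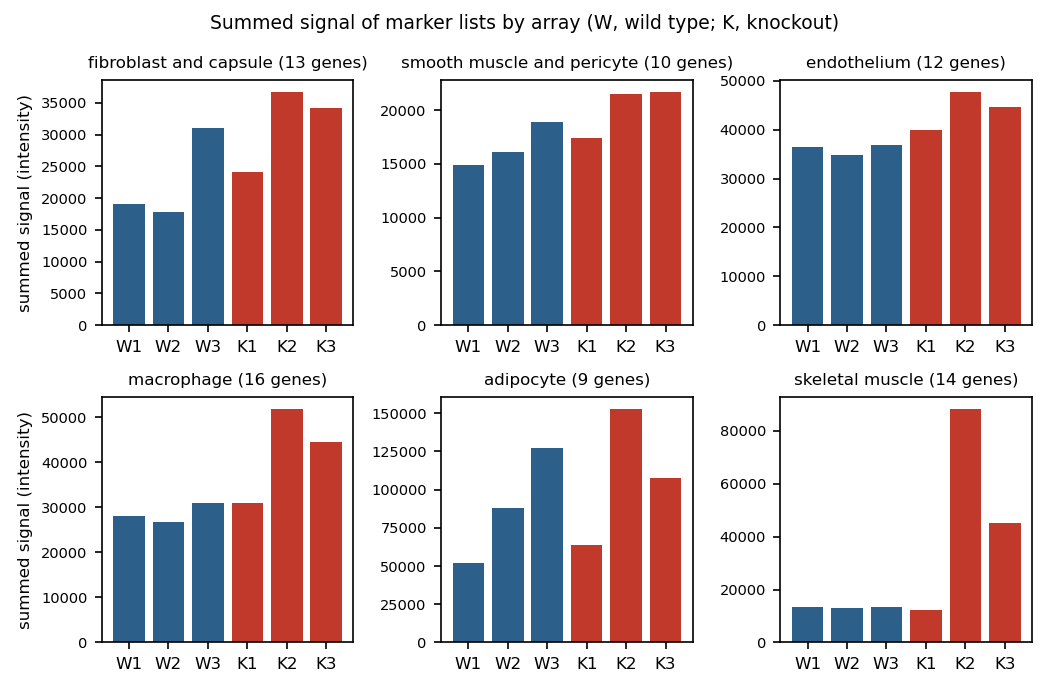
Summed signal (linear intensity, vertical axis from 0) of 6 marker lists on the wild-type (W, blue) and knockout (K, red) arrays. Adipocyte and fibroblast sums are highest on knockout array 2, and endothelial sums are higher on every knockout array. Macrophage sums are raised on knockout arrays 2 and 3, while knockout array 1 (30900) is nearly equal to wild-type array 3 (30870). Skeletal muscle genes stand out on knockout arrays 2 and 3 (88350 and 45220).

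Schwann cell genes, another source of basement membrane proteins, had summed signals over 7 genes of 12170 to 16550 in knockout and 14020 to 17810 in wild type, with a median log2 change of 0.07. The liver list, kept for attached tissue, had a median of 0.36 over 3 tested genes. Its summed signal over 5 genes varied within each genotype, at 16510, 35380 and 25360 in knockout and 15270, 12810 and 34930 in wild type. Chromaffin and cortical genes had medians of 0.21 and 0.06. In limma 0 genes of these lists passed.

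Other genes of matrix biology were read from lists of their own, and 0 of their members passed. Genes that fold, modify and cross-link collagen had a median log2 change of -0.03 over 12 tested of 14, and the 3 of smallest p were the cartilage-associated protein gene Crtap (0.36, adjusted p = 0.408), the collagen chaperone gene Serpinh1 (-0.41, 0.536) and the prolyl hydroxylase subunit P4ha1 (0.38, 0.595). Serpinh1 read 7336, 12831 and 10342 in knockout and 10222, 16563 and 13592 in wild-type arrays, with overlap. Matrix receptors had a median of 0.17 over 14 tested of 21. Their 3 smallest p were those of the syndecan gene Sdc1 (0.97, adjusted p = 0.427), the integrin chain Itga7 (0.46, 0.527) and the hyaluronan receptor gene Cd44 (-0.72, 0.534).

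Matricellular and other structural genes had a median of 0.10 over 16 tested of 32. Ccn2, a matricellular growth factor gene, read 5887, 4248 and 4535 in knockout and 4200.1, 2585 and 2890.4 in wild-type arrays, without overlap (log2 change 0.61, adjusted p = 0.385). Tnxb, of tenascin X, had 0.76 (adjusted p = 0.403) and Ltbp4, which binds latent TGF-beta, had 0.46 (adjusted p = 0.418). Other proteases and their inhibitors had a median of 0.00 over 13 tested of 19, led by the cathepsin gene Ctss (0.77, adjusted p = 0.408), which was also on the macrophage list, the Mmp inhibitor gene Reck (0.54, 0.556) and the collagen-cutting cathepsin gene Ctsk (-0.40, 0.675).

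For TGF-beta, the growth factor best known for raising matrix genes, 17 pathway genes were read, 12 of them tested, with a median log2 change of -0.01. The list holds activating and inhibiting genes together, so this median is not a measure of pathway activity. Id3, an inhibitor of basic helix-loop-helix factors that answers to BMP and TGF-beta signals, read 15055.5, 10562.7 and 8835 in knockout and 5318, 4169.8 and 5759 in wild-type arrays. The groups did not overlap, and the log2 change of 1.15 just missed the threshold (adjusted p = 0.0676). Smad2, a transducer of the pathway, had -0.59 (adjusted p = 0.320) and Id2 had -0.37 (adjusted p = 0.423), both with all knockout arrays below all wild-type arrays. Across the pathway 4 of the 12 had an unadjusted p under 0.05, 1 higher and 3 lower, where 10.7% of all genes did.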

How the data were processed

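Adrenal RNA of 3 Chga knockout and 3 wild-type mice was read on single-colour Affymetrix arrays, grouped by sample title. The deposited values are linear array intensities. The submitters' processing notes name MAS5 as the authors' software, and neither a version nor a target for scaling is stated in the labels. The mean after trimming 2% at each end was 2501 on every array, so no further scaling was applied. Of 12488 probe sets, 66 controls were left out, 10833 had a single symbol, 396 several and 1193 none. Values were taken as log2(signal + 16), and probe sets with a mean under the 40th percentile were dropped, leaving 7453. Differences were tested by lmFit and eBayes of limma 3.58.1 under R 4.3.3 (intensity trend, Benjamini-Hochberg over all 7453, threshold 0.05). The fit was checked on data made with known changes. Those were larger than the change of any matrix gene tested here, so the check does not cover changes of the sizes reported. Fold changes on this scale understate dim genes. Each gene was represented by its probe set of highest mean log2 signal. SDs and SEs are over n = 3 arrays per genotype, and the number of arrays limits the precision.

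The members and lists were chosen with earlier results of these data known. Values on every array are given for the 14 tested members of smallest p, the 6 genes named singly in the definition, the member of smallest p in each role and members whose tested probe sets differ in sign, and for other lists the 3 genes of smallest p. Other genes named, among them Mmp3, Mmp7, Mmp10 and Mmp13 for their promoters, were chosen after their values were seen. Symbols were matched to RefSeq promoter windows by name. Alternatives covered the pseudocount, filter, scaling, eBayes options, array weights, a replicate block, leaving out each array and the probe set rule. Knockout array 1 alone was added after seeing the data.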

Additional observations from a re-analysis of the deposited data

How the results depend on the processing

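0 members passed under all alternatives run except 2. Without each array in turn, between 0 and 1 members passed, the 1 being Mmp12 without knockout array 1, and at an adjusted p of 0.1 there was 1, Dcn. The member median of 0.05 ranged from -0.066 to 0.147 over the fits that left out an array. Over all probe sets, 33 passed, and the count was 17 without an intensity trend, 13 with knockout array 1 alone (chosen after seeing the data, with the spread from the wild-type arrays only), 57 with the replicate block and 15 to 141 without each array. Deviations of arrays with the same number correlated at 0.255, -0.035 and -0.039. Arrays of unlike number were not compared, so these values cannot decide whether the numbers pair the arrays, and the labels do not say. The block changed no call among members. Of 354 values of the 21 named members under alternatives, 14 changed sign, all in 5 genes that did not pass. With arrays centred on their median Col1a1 was 0.0085, with array weights Lum was -0.024, and with knockout array 1 alone Col3a1 was -0.65 and Lum -0.32. Leaving out each array in turn, Col1a1 ranged from -0.20 to 0.21, Lum from -0.15 to 0.47, Col18a1 from -0.086 to 0.19, Col3a1 from -0.16 to 0.63 and Fn1 from -0.026 to 0.46. No gene matched the symbol pattern without being a matrix gene, so that alternative gave no value. The cause of these shifts was not tested. The number of arrays sets the width of the intervals, and genes under the filter were not judged.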
